A study of Rattus norvegicus with 9 samples.

Results

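Phosphate handling, klotho and vitamin D metabolism were described through 10 genes: Slc34a1, Slc34a3, Slc20a1, Slc20a2, Xpr1, Pth1r, Kl, Vdr, Cyp27b1 and Cyp24a1. They were taken by name from a table of 18420 genes, and 9 of the 10 had a row. No row was matched to Vdr, the vitamin D receptor, so it was not analysed here. The 9 libraries were made from renal cortex of the ZDF fa/fa strain, obese rats without a working leptin receptor that were labelled diabetic, and each carries the label Medical Bypass. The study's title sets that treatment against gastric bypass surgery, but neither an operated, an untreated nor a lean group was analysed here, and the labels give no drugs, doses, age or sex. The comparisons are therefore between replicates of 1 group. Nothing in the labels says that each replicate was its own animal, so a p-value here speaks only of how these libraries differ, and that may be technical.

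The kidney sets blood phosphate by how much of the filtered phosphate the proximal tubule takes back. Apical sodium-phosphate cotransporters do this work, and parathyroid hormone, acting on its receptor, and FGF23, acting on an FGF receptor joined to klotho, both lower it by removing the cotransporters from the brush border. The proximal tubule also makes the active hormone of vitamin D with Cyp27b1 and breaks it down with Cyp24a1, and the same hormones set both enzymes. In mice klotho is richest in the distal convoluted tubule and is also present in the proximal tubule.

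Promoter sequences are shown for Slc34a1 and for the 3 members that passed the slope test on it, Slc34a3, Pth1r and Kl. They were matched by symbol in RefSeq on the build GRCr8, which differs from the build used for counting, and each runs from 250 bases before to 50 bases after the start of the gene, written in the direction of transcription. Capitals mark every match to 4 short motifs on either strand. The TATA box was searched as TATAAA. The half-site of HNF1, a factor of the proximal tubule, was searched as GTTAAT. The half-site of nuclear receptors was searched as AGGTCA, and the GC box as GGGCGG, whose overlapping copies run together.
Slc34a1 (chr17:9238934-9239233, minus strand): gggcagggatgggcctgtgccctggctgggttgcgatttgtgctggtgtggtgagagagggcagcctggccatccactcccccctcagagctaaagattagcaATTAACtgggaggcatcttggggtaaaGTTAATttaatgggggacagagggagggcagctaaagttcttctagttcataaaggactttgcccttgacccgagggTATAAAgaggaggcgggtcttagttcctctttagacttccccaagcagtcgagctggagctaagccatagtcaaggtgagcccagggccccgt
Slc34a3 (chr3:28447948-28448247, minus strand): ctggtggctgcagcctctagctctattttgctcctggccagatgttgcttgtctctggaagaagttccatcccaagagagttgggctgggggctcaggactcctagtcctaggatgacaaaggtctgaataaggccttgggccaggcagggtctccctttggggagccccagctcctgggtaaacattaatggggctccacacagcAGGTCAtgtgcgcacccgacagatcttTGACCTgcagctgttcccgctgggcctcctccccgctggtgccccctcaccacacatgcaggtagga
Pth1r (chr8:119595522-119595821, minus strand): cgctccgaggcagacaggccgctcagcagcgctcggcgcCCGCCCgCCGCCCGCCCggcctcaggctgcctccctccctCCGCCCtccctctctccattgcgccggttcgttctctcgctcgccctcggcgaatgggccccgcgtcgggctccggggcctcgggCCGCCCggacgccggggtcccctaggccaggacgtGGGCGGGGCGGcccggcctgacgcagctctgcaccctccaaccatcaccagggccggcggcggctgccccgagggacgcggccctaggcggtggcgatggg
Kl (chr12:5325753-5326052, plus strand): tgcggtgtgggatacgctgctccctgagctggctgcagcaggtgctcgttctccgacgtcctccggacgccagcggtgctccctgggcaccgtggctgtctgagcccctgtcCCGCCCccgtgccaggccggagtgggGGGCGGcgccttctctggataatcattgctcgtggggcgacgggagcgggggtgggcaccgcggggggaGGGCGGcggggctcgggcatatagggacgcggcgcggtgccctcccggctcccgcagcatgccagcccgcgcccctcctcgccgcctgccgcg

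The Slc34a1 window held TATAAA at position -43 from the start of the gene and GTTAAT at -147 on the other strand and at -120 on the same strand. TATAAA was in 14.2% and GTTAAT in 7.45% of the 33469 promoter windows of the same length. The Slc34a3 window held AGGTCA at -44 and, on the other strand, at -17, a motif present in 16.2% of the windows. No GTTAAT and no TATAAA was in that window. GC boxes, which 33.1% of the windows held, occurred 7 times in the Pth1r window and 3 times in the Kl window. With 78.7% G and C, the Pth1r window was richer than 98.7% of the windows, and the Kl window, with 75.0%, was richer than 96.8%. The Slc34a1 and Slc34a3 windows, with 54.7% and 58.7%, were richer than 59.3% and 70.5% of the windows, whose median was 51.7%. These matches describe letters in a window and are not evidence of bound sites.

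The libraries held 10757440 to 43071223 reads in genes. Levels below are reads divided by each library's size factor. They are not corrected for gene length, so levels are compared between libraries and not between genes. All 10 markers of the early proximal tubule (segments S1 and S2) were found, which fits the labelled cortex, and Bglap, the osteocalcin gene of bone, reached only 2.00. Replicate 1 stood apart: its summed early proximal level was 212580, against 323960 to 465770 in the other libraries, and its summed principal cell level was 26622, against 10600 to 16614. Reads that mapped to several places in the genome made 14.9% to 22.1% of all counted reads, highest in replicate 5. Slopes on this multi-place share are given for the members and for the list genes named below that passed on it. In bulk tissue, fewer cells of a type and less RNA per cell cannot be told apart.

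Slc34a1, the main apical phosphate cotransporter of the proximal tubule (NaPi-IIa), ran from 52253 in replicate 9 to 107425 in replicate 5, with a median of 76900. The mean was 79242 ± 21463 (SD, n = 9) and the range 2.06-fold. Replicates 5, 7 and 8 were the 3 highest, at 99766 to 107425, and no other library exceeded 77283. Slc34a3, the second apical cotransporter (NaPi-IIc), ran from 3062 in replicate 1 through a median of 4409 to 7139 in replicate 8, with a mean of 4640 ± 1477 (SD, n = 9). Its 3 highest libraries were again replicates 5, 7 and 8. The Slc34a1 to Slc34a3 ratio, read only for its spread, was 17.3 ± 1.82 (SD, n = 9) and varied 1.35-fold, less than the 2.06-fold and 2.33-fold ranges of the genes themselves.

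Slc34a3 rose with Slc34a1 by 0.42 ± 0.07 log2 units for each SD of log2 Slc34a1 (limma slope ± SE, adjusted p = 0.0173 over all genes tested). Pearson r was 0.944 (exact two-sided permutation p = 0.000788) and Spearman rho 0.90 (exact p = 0.00203). Without replicates 3 and 9, the 2 farthest from the median of log2 Slc34a1, r was 0.969. Both are low libraries, so that check kept replicates 5, 7 and 8. Among the 6 replicates other than 5, 7 and 8, r was 0.827, with an exact p of 0.0694 at n = 6. That subset was picked after the data were seen and spans a narrower range of Slc34a1. The slope was 0.46 with the multi-place share as a covariate (adjusted p = 0.0199), where 1.26% of all genes passed. With the proximal tubule markers as a covariate it was 0.39 (adjusted p = 0.00104), where 42.6% of all genes passed. Leaving out replicate 3, 5, 7 or 8 ended the call, with adjusted p = 0.0828, 0.0878, 0.0707 and 0.117 in that order, while the slope stayed at 0.36 to 0.45 over all 9 omissions. Over all settings the adjusted p ran from 8.06e-07 to 0.117. With Slc34a3 as the predictor, the slope of Slc34a1 missed the threshold (adjusted p = 0.0528).

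Of the 8 other members, 3 passed the slope test on Slc34a1, and 13.8% of all 13646 genes tested passed it too. The median absolute slope was 0.34 over the 8 members and 0.16 over all genes. Rising genes made 7.95% of all genes and falling genes 5.80%, and the members that passed were Slc34a3 and Pth1r, which rose, and Kl, which fell. The count of genes called rested on single libraries: it was 0 without replicate 3, 5 or 8, and 1 without replicate 7.

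**Figure D1:**
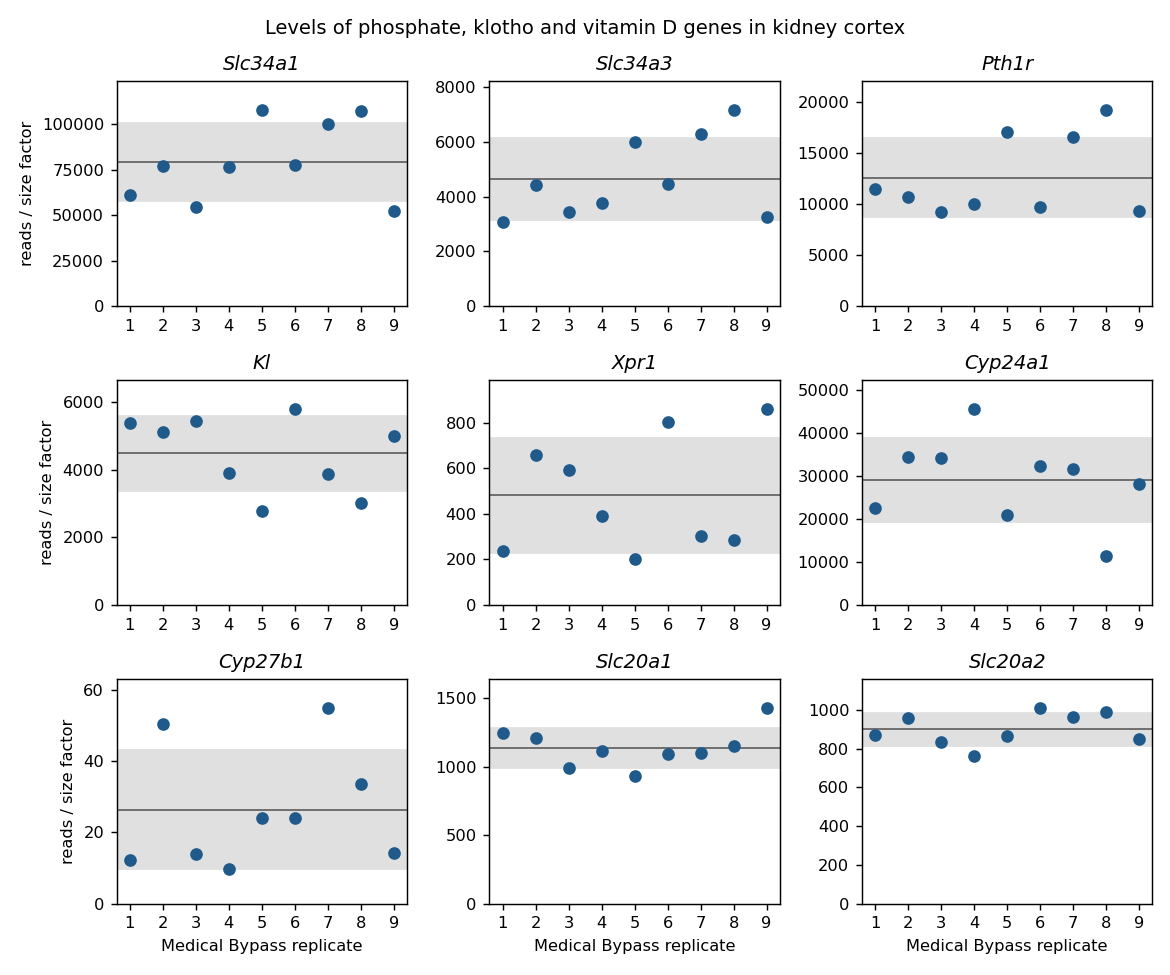
Level of each of the 9 measured genes (vertical axes, reads divided by the size factor) in Medical Bypass replicates 1 to 9 (horizontal axes). Points are libraries, the line is the mean and the grey band is the mean ± SD (n = 9); replicates 5, 7 and 8 are the 3 highest for Slc34a1, Slc34a3 and Pth1r and the 3 lowest for Kl.

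Pth1r, the receptor through which parathyroid hormone acts on the tubule, ran from 9254 in replicate 3 through a median of 10674 to 19150 in replicate 8. Its mean was 12573 ± 3885 (SD, n = 9). Its 3 highest libraries were again replicates 5, 7 and 8, at 16557 to 19150, and the next was replicate 1 at 11476. Pth1r rose with Slc34a1 by 0.36 ± 0.08 log2 units per SD (adjusted p = 0.0280). The correlation over all 9 libraries was r = 0.866 (exact p = 0.00543) and rho = 0.817 (exact p = 0.0108), and r was 0.842 without replicates 3 and 9. Among the 6 other replicates r was 0.330 (exact p = 0.539, n = 6). The call was lost without replicate 3, 5, 7, 8 or 9, with adjusted p of 0.0607 to 0.130, and with the multi-place share as a covariate (slope 0.30, adjusted p = 0.0784). Over all settings the adjusted p ran from 0.000903 to 0.130.

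Kl, which encodes klotho, the partner that lets FGF receptors bind FGF23, went the other way. It ran from 2781 in replicate 5 through a median of 5002 to 5792 in replicate 6, with a mean of 4482 ± 1108 (SD, n = 9). Replicates 5, 8 and 7 were its 3 lowest, at 2781, 3027 and 3875, and replicate 4 lay beside them at 3917. Kl fell with Slc34a1 by 0.31 ± 0.08 log2 units per SD (slope -0.31, adjusted p = 0.0368). Pearson r was -0.804 (exact p = 0.0129), Spearman rho -0.617 (exact p = 0.0857), and r without replicates 3 and 9 was -0.847. Among the 6 other replicates r was -0.242 (exact p = 0.769, n = 6). The call was lost without replicate 3, 4, 5, 7, 8 or 9 (adjusted p 0.0555 to 0.166), with the same total per library (0.0683) and with the multi-place share as a covariate (0.131). Its range over all settings was 0.00909 to 0.166.

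**Figure D2:**
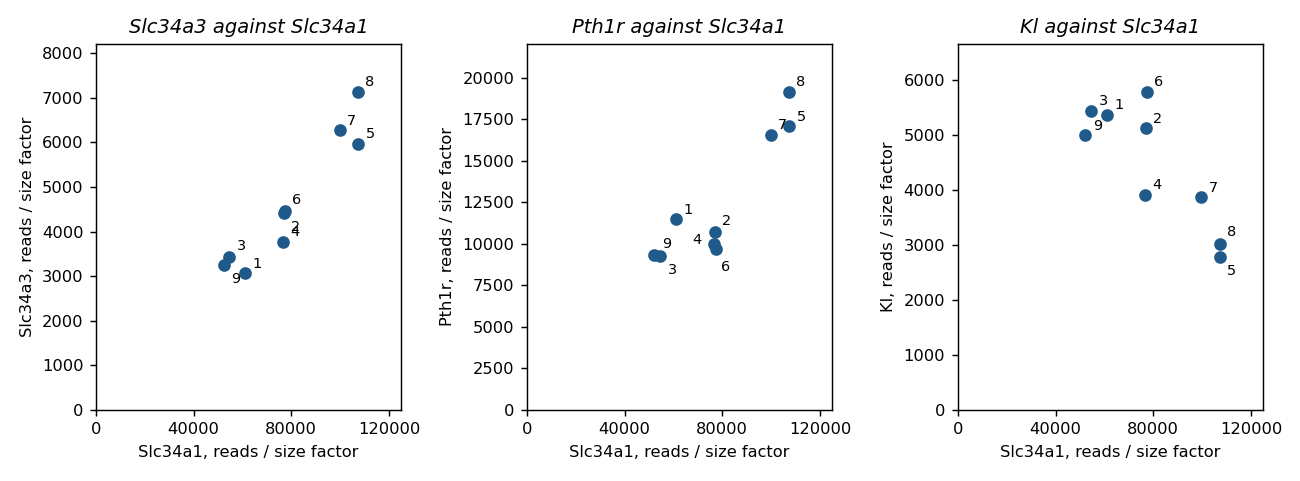
Levels of Slc34a3, Pth1r and Kl (vertical axes, reads divided by the size factor) against Slc34a1 (horizontal axes, in the same unit). Each point is 1 library, numbered by replicate; replicates 5, 7 and 8 lie at the right of each plot, where Pth1r is at its highest and Kl at its lowest, and Slc34a3 climbs along the whole range.

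With Kl as the predictor, 4 of the 8 other members passed, against 27.1% of all genes (14.6% rising and 12.5% falling). Slc34a1, Slc34a3 and Pth1r fell with Kl, with slopes of -0.32 ± 0.08, -0.34 ± 0.09 and -0.35 ± 0.08 log2 units per SD (SE, adjusted p = 0.0186, 0.0224 and 0.0106 in that order). The Pth1r correlation was r = -0.846 (exact p = 0.0149) and rho = -0.750 (exact p = 0.0255). For Slc34a3 r was -0.765 (exact p = 0.0269) and rho -0.583 (exact p = 0.108). These weakened to r = -0.584 and -0.487 without replicates 5 and 8, the 2 farthest from the median Kl level, and were 0.008 and 0.06 among the 6 replicates other than 5, 7 and 8. Xpr1 rose with Kl by 0.55 ± 0.17 (adjusted p = 0.0305), with r = 0.708 (exact p = 0.0359), rho = 0.583 (exact p = 0.108) and r = 0.472 without replicates 5 and 8. Among the same 6 replicates r was 0.278. None of the 4 passed without replicate 5 or without replicate 8, and none passed with the multi-place share as a covariate, where the adjusted p was 0.0995 for Slc34a3, 0.151 for Slc34a1, 0.185 for Pth1r and 0.790 for Xpr1. Xpr1 was also lost without replicate 2, 3, 6 or 7 (adjusted p 0.0514 to 0.0821), and Slc34a1 and Slc34a3 with the same total per library (0.0658 and 0.0535).

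Xpr1, the exporter that lets phosphate leave cells, had the highest variance for its level among the 9 members. Its level ran from 202.8 in replicate 5 through a median of 389.5 to 859.1 in replicate 9, a 4.24-fold range, with a mean of 481.5 ± 251.5 (SD, n = 9). Replicates 5, 1, 8 and 7 were lowest and replicates 9 and 6 highest. Its variance was 7.44 times the value that limma's trend gives for its level, a ratio higher than that of 98.1% of genes (unadjusted p = 0.0267, adjusted p = 0.957). No gene of the 13647 passed the variance test after adjustment (0%), and 573 genes, 4.20%, had an unadjusted p under 0.05, among them 1 of the 9 members. The ratio was 6.39 to 8.52 when single replicates were left out. Over the 9 members the median ratio was 2.36, and over all genes it was 1.11.

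Xpr1 also ran opposite to the multi-place share. It fell with that share by 0.69 ± 0.12 log2 units per SD (slope -0.69, adjusted p = 0.00227). Pearson r was -0.881 (exact p = 0.000496) and Spearman rho -0.867 (exact p = 0.00451), and r was -0.861 without replicates 1 and 5, the 2 farthest from the median share. Leaving out any 1 replicate kept the slope between -0.75 and -0.65, and over all settings the adjusted p ran from 8.66e-07 to 0.0125. Of the 9 members 0 rose and 2 fell in this test, where 35.0% of all genes passed, 16.3% rising and 18.7% falling. The other was Kl, with a slope of -0.28 ± 0.09 (adjusted p = 0.0272) and r = -0.728 (exact p = 0.0402). The Spearman rho of Kl was -0.650 (exact p = 0.0666), and r without replicates 1 and 5 was -0.964. Kl did not pass without replicate 5 (slope -0.16, adjusted p = 0.275) or replicate 6 (slope -0.26, adjusted p = 0.0629). Pth1r lay just outside the threshold, with a slope of 0.27 ± 0.10 (adjusted p = 0.0565), and passed without replicate 1 or 7 (0.0337 and 0.0296) and with DESeq2 (0.0301).

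**Figure D3:**
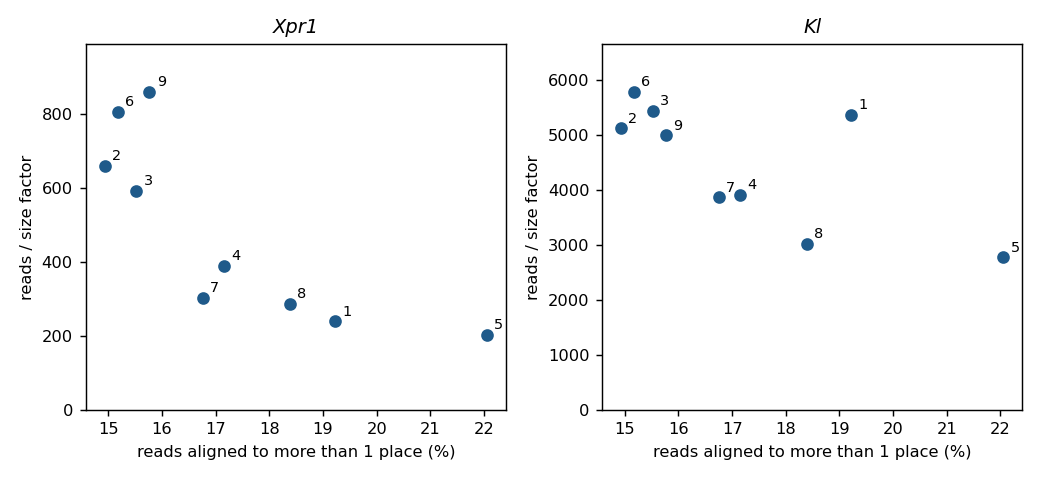
Levels of Xpr1 and Kl (vertical axes, reads divided by the size factor) against the multi-place share (horizontal axes, percent of counted reads, from 14.9% to 22.1%). Each point is 1 library, numbered by replicate; both genes are lowest in replicate 5, which has the highest share, and replicate 1 is low for Xpr1 and high for Kl.

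The type III cotransporters, which take up phosphate in most cell types, had the narrowest ranges of the 9 members. Slc20a1 (PiT-1) was 930.4 in replicate 5, with a median of 1112 and a maximum of 1429 in replicate 9, and averaged 1140 ± 146 (SD, n = 9). Slc20a2 (PiT-2) was 759.8 in replicate 4, with a median of 871.0 and a maximum of 1009.7 in replicate 6, and averaged 899.8 ± 83.8 (SD, n = 9). Their ranges were 1.54-fold and 1.33-fold. Their variances were 0.516 and 0.279 times the trend, which 19.9% and 6.90% of genes fell below. Neither passed a slope test on Slc34a1, Kl, Cyp24a1 or the multi-place share.

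Cyp27b1, the enzyme that makes active vitamin D, was barely counted. It had 7 to 65 reads per library, and its levels ran from 9.88 in replicate 4 through a median of 23.9 to 54.9 in replicate 7, with a mean of 26.4 ± 16.7 (SD, n = 9). Replicates 7 and 2 were highest. The counting interval alone (exact Poisson, 95%) was 41.4 to 71.5 for replicate 7 and 5.53 to 16.3 for replicate 4, so these 2 libraries differed beyond counting error. That interval for replicate 3, the shallowest library, was 5.60 to 28.7. Cyp24a1, the enzyme that breaks vitamin D down and the best known target of its receptor, was counted deeply in every library. It ran from 11412 in replicate 8 through a median of 31608 to 45603 in replicate 4, a 4.00-fold range, with a mean of 29030 ± 9806 (SD, n = 9). Replicate 8 had the lowest Cyp24a1 and the highest Pth1r and Slc34a3, and replicate 4 had the highest Cyp24a1 and the lowest Cyp27b1. The Cyp24a1 to Cyp27b1 ratio varied 13.6-fold, from 338.4 in replicate 8 to 4613 in replicate 4.

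No gene passed the slope test on Cyp24a1 (0% of 13646, with a lowest adjusted p of 0.342), and so none of the 8 other members did. An unadjusted p under 0.05 was found for 1823 genes with limma, edgeR called 0 genes and DESeq2 called 1. Pth1r had the strongest relation among the members, with r = -0.722 (exact p = 0.0319), rho = -0.633 (exact p = 0.0760) and a slope of -0.30 ± 0.10 (adjusted p = 0.342). It rested on replicates 5 and 8, since r was -0.185 without them. With Cyp27b1 the correlation was r = -0.232 (exact p = 0.561) and rho = -0.250 (exact p = 0.521), so an opposition of the 2 vitamin D enzymes was not detectable among these libraries.

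All 36 pairs of the 9 members were examined, besides 9 relations to the multi-place share, and 11 pairs had an exact p of r under 0.05. Of these 11, 4 were outside the tests on Slc34a1, Kl and Cyp24a1 and were picked after their values were seen. Pth1r and Slc34a3 had r = 0.881 (exact p = 0.00991) and rho = 0.667 (exact p = 0.0589), with r = 0.932 without replicates 1 and 8 and -0.079 among the 6 replicates other than 5, 7 and 8. The slope of Pth1r on Slc34a3 did not pass (adjusted p = 0.0817, where 0.147% of genes passed). Pth1r and Xpr1 had r = -0.764 (exact p = 0.0210) and rho = -0.783 (exact p = 0.0172), with r = -0.737 among those 6. That slope passed (-0.32 ± 0.09, adjusted p = 0.0147), as did 42.1% of all genes on Xpr1, and it did not pass with the multi-place share as a covariate (adjusted p = 0.485) or without replicate 5 (0.0631). Cyp27b1 had r = 0.740 with Slc34a3 (exact p = 0.0320; rho = 0.750, exact p = 0.0255) and r = 0.801 with Slc20a2 (exact p = 0.0120; rho = 0.667, exact p = 0.0589). Among the 6 replicates these were r = 0.733 and 0.791. Neither slope passed (adjusted p = 0.135 and 1.00).

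**Figure D4:**
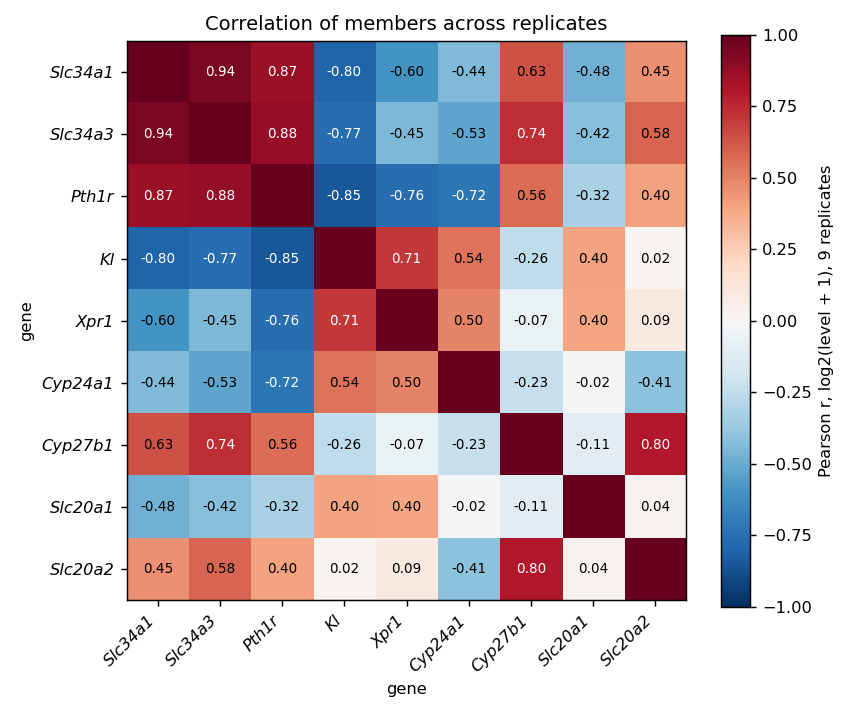
Pearson correlation of log2(level + 1) for each pair of the 9 measured genes over 9 libraries (both axes list genes; red is positive and blue negative, on a scale from -1 to 1). Slc34a1, Slc34a3 and Pth1r form a positive block at 0.87 to 0.94 and Kl is negative with each of the 3, at -0.77 to -0.85.

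Genes around the members were read from lists of mineral balance genes, against the 13.8% of all genes that passed on Slc34a1 and the 27.1% that passed on Kl. FGF receptors, which klotho needs as partners, showed little: none of 4 passed on Slc34a1. On Kl 1 of the 4 passed (25%, near the share of all genes): Fgfr2 rose by 0.24 ± 0.08 log2 units per SD (adjusted p = 0.0421). Its level averaged 367.3 ± 83.0 (SD, n = 9). Fgfr1 and Fgfr4, which had the most reads of the 4, uncorrected for length, at 1883 ± 133 and 1346 ± 286 (SD, n = 9), had slopes on Kl of 0.07 and -0.08. The Fgfr2 call was lost without replicate 2, 4, 5, 6, 7 or 8, with no filter on low values, and with the multi-place share as a covariate.

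Among 8 tested genes for the scaffolds that hold the cotransporters and for parathyroid hormone signalling, 0 rose and 1 fell with Slc34a1, and 1 rose and 1 fell with Kl. These are 12.5% and 25% of the tested genes, near the 13.8% and 27.1% of all genes. The row named Gnas, also on that list, had a mean level of 0.60, too low to be tested, and no row was matched to Adcy6. Whether that row holds all reads of Gnas was not tested, so the expression of Gnas is not judged here. Slc9a3r1, which encodes the scaffold NHERF1, averaged 14396 ± 2750 (SD, n = 9) and fell with Kl by 0.25 ± 0.06 (slope -0.25, adjusted p = 0.0115). On Slc34a1 its slope was 0.21 (adjusted p = 0.0640). Gnaq, the G protein subunit that couples the receptor to phospholipase C, fell with Slc34a1 (slope -0.48 ± 0.13, adjusted p = 0.0404) and rose with Kl (0.54 ± 0.11, adjusted p = 0.00848). It also fell with the multi-place share, with a slope of -0.51 (adjusted p = 0.00800). Pdzk1 and Ezr, the scaffold and linker with the most reads, averaged 29071 ± 6866 and 20591 ± 3660 (SD, n = 9) and had slopes on Slc34a1 of 0.10 and -0.02. With the multi-place share as a covariate none of the 8 passed on either predictor, nor did any on Kl without replicate 5, or on Slc34a1 with the same total per library or without replicate 3, 4, 5, 7, 8 or 9.

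Of 12 tested genes for phosphate and mineral balance, 1 rose and 1 fell with Slc34a1 (16.7%, where 13.8% of all genes passed). Alpl, the alkaline phosphatase that splits pyrophosphate, ran from 10289 in replicate 1 to 21163 in replicate 8, with replicates 8, 5 and 7 the 3 highest. It rose with Slc34a1 by 0.33 ± 0.07 (adjusted p = 0.0255) and fell with Kl (slope -0.29 ± 0.08, adjusted p = 0.0207). Kidins220, which forms a complex with the exporter Xpr1, fell with Slc34a1 (slope -0.24 ± 0.07, adjusted p = 0.0433). With Kl, 3 of the 12 rose and 2 fell (41.7%, where 27.1% of all genes passed). Kidins220 rose by 0.22 ± 0.07 (adjusted p = 0.0412), Enpp1, which makes pyrophosphate, by 0.25 ± 0.08 (adjusted p = 0.0463), and Ppip5k2, a kinase of the inositol pyrophosphates that regulate Xpr1, by 0.69 ± 0.14 (adjusted p = 0.00773). Fam20c, the kinase that phosphorylates FGF23, fell with Kl (slope -0.24 ± 0.06, adjusted p = 0.0170), as Alpl did. Ppip5k2, Enpp1 and Kidins220 also fell with the multi-place share, like Xpr1, with slopes of -0.77, -0.33 and -0.25, and Fam20c rose with it (0.24). The part of that share in these results was not tested beyond the covariate fit, in which none of the 12 passed on Kl. None of the 12 passed on Kl without replicate 5, and 1 did without replicate 8. Only 1 gene still rose with Kl without replicate 2, 6, 7 or 9 or with no filter on low values. On Slc34a1 none passed without replicate 3, 5, 7 or 8.

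Among 9 tested genes for vitamin D uptake and synthesis, 2 rose with Slc34a1 (22.2%, where 13.8% of all genes passed) and 3 fell with Kl (33.3%, where 27.1% passed). No row was matched to Lrp2 or Fdxr, which are also on that list. Amn, the amnionless protein that anchors cubilin for uptake of vitamin D binding protein, ran from 2347 in replicate 3 to 7998 in replicate 5. Amn rose with Slc34a1 by 0.49 ± 0.10 (adjusted p = 0.0259) and fell with Kl (slope -0.52 ± 0.09, adjusted p = 0.00471). Fdx1, the ferredoxin that passes electrons to mitochondrial vitamin D hydroxylases, rose with Slc34a1 by 0.32 ± 0.08 (adjusted p = 0.0297) and fell with Kl (slope -0.36 ± 0.06, adjusted p = 0.00429). Rxrb, a retinoid X receptor that pairs with the vitamin D receptor, fell with Kl (slope -0.36 ± 0.09, adjusted p = 0.0170). Cubn, the cubilin receptor, and Dab2, its adaptor, had the most reads, with means of 13497 ± 3139 and 11760 ± 4346 (SD, n = 9), and slopes on Slc34a1 of 0.10 and -0.24. Amn, Fdx1 and Rxrb rose with the multi-place share as well, with slopes of 0.50, 0.30 and 0.41, and Dab2 fell with it (-0.55). With that share as a covariate, 1 of the 9 passed on Slc34a1 and 0 on Kl. None passed on Slc34a1 without replicate 3, 5, 7, 8 or 9, and none on Kl without replicate 5.

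**Figure D5:**
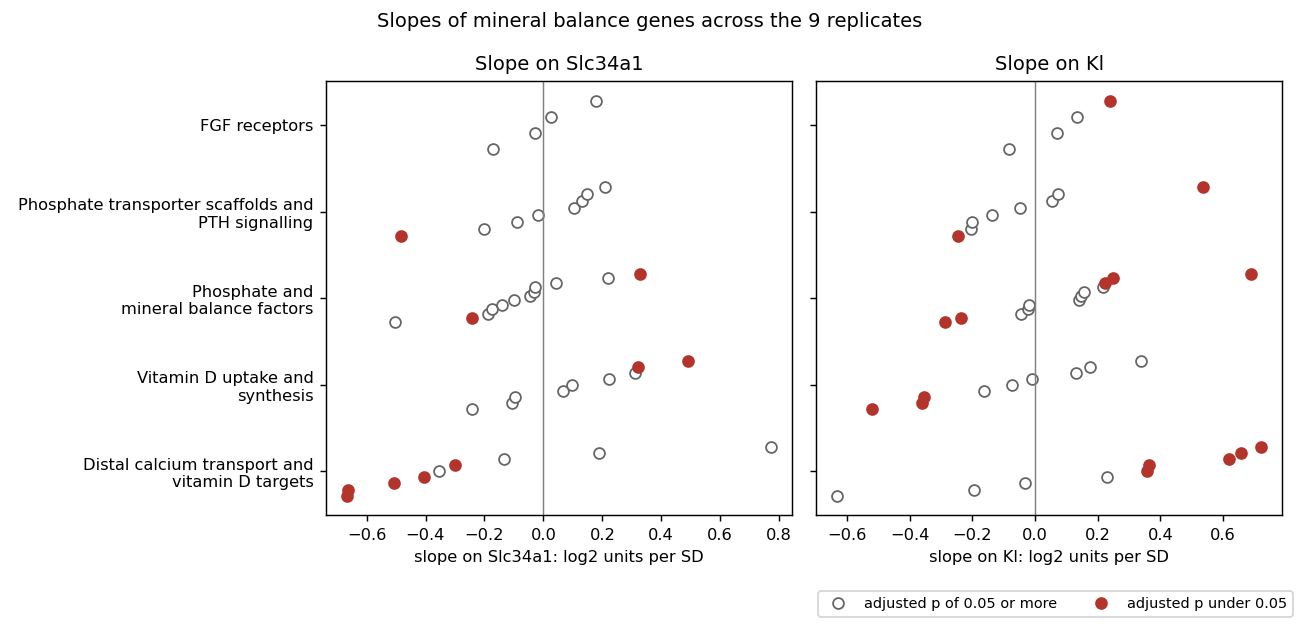
Slopes of the genes of 5 mineral balance lists on Slc34a1 (left) and on Kl (right), in log2 units per SD of the predictor (horizontal axes), with 1 row of points per list. Filled red points have an adjusted p under 0.05 over all genes tested and open points do not; in the distal calcium list 5 of 9 genes fell with Slc34a1 and 5 of 9 rose with Kl.

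Distal calcium transport and vitamin D targets made the list with the most calls. On Slc34a1, 0 of its 9 tested genes rose and 5 fell, and on Kl 5 rose and 0 fell. That is 55.6% of the list on either predictor, where 13.8% of all genes passed on Slc34a1 and 27.1% on Kl. The median slope of the 9 was -0.35 on Slc34a1, where it was 0.01 over all genes, and 0.36 on Kl, where it was -0.02 over all genes. Slc8a1, the sodium-calcium exchanger of the distal tubule's basolateral side, ran from 683.7 in replicate 5 to 2335 in replicate 9, with replicates 5, 8 and 7 lowest. It fell with Slc34a1 (slope -0.67 ± 0.08, adjusted p = 0.0114) and rose with Kl by 0.66 ± 0.09 (adjusted p = 0.00308). Casr, the calcium-sensing receptor, ran from 379.2 in replicate 5 to 1196 in replicate 6, with replicates 5, 8 and 7 again lowest. Casr fell with Slc34a1 (slope -0.51 ± 0.12, adjusted p = 0.0299) and rose with Kl by 0.62 ± 0.06 (adjusted p = 0.00175, r = 0.98).

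Atp2b4, a calcium pump of the plasma membrane, fell with Slc34a1 (slope -0.66 ± 0.14, adjusted p = 0.0259) and rose with Kl by 0.72 ± 0.11 (adjusted p = 0.00383). Trpv5, the apical calcium channel that klotho is known to hold at the cell surface, ran from 355.0 in replicate 5 to 735.2 in replicate 1. Its slopes were -0.30 ± 0.09 on Slc34a1 (adjusted p = 0.0495) and 0.36 ± 0.07 on Kl (adjusted p = 0.00675). Calb1, the calcium buffer calbindin, had the most reads of the list, with a mean of 21532 ± 7623 (SD, n = 9), and fell with Slc34a1 (slope -0.40 ± 0.10, adjusted p = 0.0342), while its slope on Kl was 0.23 (adjusted p = 0.233). Atp2b1, another calcium pump, rose with Kl by 0.36 ± 0.11 (adjusted p = 0.0275). S100g, calbindin-D9k, and Trpv6, an apical calcium channel, are also on this list as vitamin D targets. Their slopes on Kl were -0.19 (adjusted p = 0.0993) and -0.03 (adjusted p = 0.932). Over the 9 genes, 6 slopes on Kl were above 0 and 3 below, and 2 slopes on Slc34a1 were above 0 and 7 below. On the multi-place share, where 35.0% of all genes passed, 0 of the 9 rose and 3 fell: Casr (slope -0.44, adjusted p = 0.0242), Atp2b4 (-0.55, 0.0232) and Atp2b1 (-0.43, 0.00375).

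The distal convoluted tubule markers that had a row moved with this list, but no row was matched to Slc12a3 or Pvalb. Of the 5 markers 3 were tested, and all 3 fell with Slc34a1 (where 5.80% of all genes fell) and rose with Kl (where 14.6% rose): Tmem72 (slopes -0.38 and 0.42), Trpm6, a magnesium channel (-0.25 and 0.23), and Wnk1, a kinase that controls sodium transport (-0.30 and 0.31). None of the 3 passed on Slc34a1 with the same total per library, with the multi-place share as a covariate, or without replicate 3, 5, 7, 8 or 9. On Kl 1 of the 3 passed with the multi-place share as a covariate or without replicate 5, and 2 passed without replicate 2, 4, 6, 7 or 8 or with no filter on low values. Their summed level was lowest in replicates 5, 8 and 7, at 14488, 15860 and 16817, and the next was 18157 in replicate 4. Wnk1 made most of that sum, 13075 of the 14488 in replicate 5. The summed early proximal level was highest in replicates 8, 7 and 5, at 465770, 444679 and 407152, and the next was 401638 in replicate 4. Of those 10 proximal markers, 3 rose with Slc34a1 (Slc5a2, Slc13a3 and Slc22a6) and 0 fell, where 7.95% of all genes rose and 5.80% fell. Slopes on Slc34a1 were above 0 for 8 of the 10 and below 0 for 2. On Kl 2 of the 10 fell (20%, where 27.1% of all genes passed). With the multi-place share 2 fell (20%, where 35.0% of all genes passed). The part of the distal markers in the members' results was not tested. With the proximal markers as a covariate, Slc34a3, Pth1r and Kl passed on Slc34a1, as did 42.6% of all genes. Without replicate 1, 6 of the 9 distal calcium genes fell and 1 rose with Slc34a1, where 39.9% of all genes passed. In the same setting 5 rose with Kl, where 45.1% of all genes passed. None fell with Slc34a1 without replicate 3, 5, 7 or 8, and 1 did without replicate 9. With the multi-place share as a covariate 2 fell with Slc34a1 and 1 rose with Kl, and 1 rose with Kl without replicate 5. On Cyp24a1 no gene of the 5 lists passed.

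Markers of 7 other cell types or states passed on Kl about as often as genes at large, 9 of 33 tested (27.3%, against 27.1% of all genes). On Slc34a1 3 of the 33 passed (9.09%, against 13.8%). The 6 markers of the late proximal tubule (segment S3) were not among the 33. In that list 1 rose with Slc34a1 (16.7%, against 13.8%), 0 passed on Kl, and 1 fell with the multi-place share (16.7%, against 35.0%). Of the 6 macrophage markers, C1qa, C1qb and C1qc fell with Kl (slopes -0.37, -0.30 and -0.35), and all 3 rose with the multi-place share (0.39, 0.34 and 0.44). These calls are 50% of the list on either predictor, where 27.1% of all genes passed on Kl and 35.0% on the multi-place share. Cd68, Csf1r and Lyz2, the other macrophage markers, passed on neither. The summed macrophage level was highest in replicate 5 at 9145 and lowest in replicate 3 at 5946. Lyz2 made most of that sum, 6559 of the 9145 in replicate 5, and was itself highest in replicate 1 at 6661. The podocyte genes Podxl and Synpo (2 of 5), the endothelial genes Cdh5 and Kdr (2 of 4) and Slc12a1 of the thick ascending limb (1 of 3) rose with Kl, and the injury marker Clu (1 of 5) fell and rose with the multi-place share (0.23). Slc12a1, Podxl and Cdh5 also fell with Slc34a1. No marker of principal or intercalated cells passed on Slc34a1 or Kl. The part of these cell types in the Kl results was not tested.

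The genes most like the members across the 9 libraries were taken from both ends of the ranking by Pearson r, as a description without a test. Members and genes known only by an identifier or placeholder name were left out of these ends. Slc34a1 was most like Plin5, a lipid droplet protein (r = 0.985, level 157.3 to 587.1), Lrrc20 (0.980) and Clptm1 (0.978). At the other end were Lrrn1 (-0.977), Plod2, a collagen lysyl hydroxylase (-0.967), and Poli, a DNA polymerase (-0.958). Among all 13646 genes, with or without a symbol, Slc34a3 (r = 0.944) was above 99.7%. Kl was most like Fam83b (0.989), Map3k1, a signalling kinase (0.989), and Lrp12 (0.983), and least like Eif3b, a translation initiation factor (-0.977), Eefsec (-0.976) and Hint1 (-0.974). Cyp24a1 was most like RGD1311575 (0.964), Tiam2 (0.879) and Me1, the cytosolic malic enzyme (0.868), and least like Mrm3 (-0.854), Lmnb2, a nuclear lamin (-0.853), and Espnl (-0.834). All these rankings use the same 9 libraries, which differ in depth and composition, and the ends of a ranking of so many genes over 9 points hold values near 1.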

How the data were processed

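Per the labels' protocols, frozen cortex gave RNA on a silica column kit and then strand-specific mRNA libraries. The deposited signal is, for each gene, the number of reads over the size factor of the library, as the authors computed it. According to the submitters' processing notes, HTSeq 0.6.1p1, DESeq2, FastQC 0.11.2 and MultiQC 0.9 were used with the build Rnor_5.0, and the aligner is not given in the sources used here. Whole reads were recovered (tolerance 0.1 read), with 99.99% of the values whole. A 95% Poisson interval covers counting error only. The 3 rows that name no gene stayed out of the tests. One of them counts the reads of the multi-place share.

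The members and lists were chosen with earlier results of these data known. Levels were analysed as log2(value + 1) in the 13647 genes whose mean reached 10, all 9 members among them. Variance against its trend, and slopes on the multi-place share, Slc34a1, Kl and Cyp24a1, were fitted with limma 3.58.1 across all genes in R 4.3.3, with a robust trend and Benjamini-Hochberg adjustment (threshold 0.05). A fold on this scale understates change in genes with low values. Predictors were z-scored, so a slope is per SD. For single pairs, permutation tests of r and rho were exact, two-sided and over all pairings. On the recovered reads edgeR 4.0.16 (quasi-likelihood) and DESeq2 1.42.0 gave alternatives. The limma variance and slope fits were tested on simulated data, and edgeR and DESeq2 were not. Named genes were the members, the 3 genes at each end of each likeness ranking and, per list, those that passed plus the 2 with the highest means. The ends of the likeness rankings left out members and genes known only by an identifier or placeholder name. S100g, Trpv6, Bglap, and the genes named from the marker lists, were chosen after their values were seen. The single-pair tests within 6 replicates were added after the data were seen. Promoter sequences were found for 7 of the 10 members, and Slc20a1, Slc20a2 and Cyp24a1 had none.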

Additional observations from a re-analysis of the deposited data

How the results depend on the processing

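The number of genes called on Slc34a1 moved from 1877 to 659 with the same total per library, 172 with the multi-place share as a covariate, 5808 with the proximal tubule markers as a covariate and 3168 with DESeq2. On Kl it moved from 3698 to 17 with the multi-place share as a covariate. On Cyp24a1 DESeq2 called 1 gene where limma called 0. Leaving out 1 replicate at a time gave 0 to 5436 genes on Slc34a1, 37 to 6153 on Kl (37 without replicate 5 and 6153 without replicate 1), 1744 to 4977 on the multi-place share (1744 without replicate 5), 0 on Cyp24a1 and 0 for the variance test. The causes were not tested.

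The same total per library shifted log2 levels by -0.12 in replicate 5 to 0.18 in replicate 1, and moved the share of called genes that rose from 57.8% to 38.4% on Slc34a1, from 54.0% to 89.3% on Kl and from 46.6% to 34.6% on the multi-place share. None of the member slopes that passed changed sign under it. Slopes near 0 did change sign: Slc20a2 on Kl became -0.033 with the multi-place share as a covariate, and Slc20a1 on Cyp24a1 became 0.058 with the same total. With 1 replicate left out, the slopes that changed sign were Slc20a1 on Cyp24a1 (-0.034 to 0.013), Slc20a2 on Kl (-0.027 to 0.036), and Cyp27b1 (-0.21 to 0.072) and Slc20a1 (-0.099 to 0.022) on the multi-place share. Under the other settings, 391 member slopes and variance ratios were set against the main fit. Of these, 374 kept their side of the threshold and, for slopes, their direction. Another 10 no longer passed, 5 newly passed and 2 changed sign. Among 414 with 1 replicate left out, these numbers were 368, 30, 5 and 11. Most of both sets had not passed in the main fit and so could not be lost. All losses came from the slopes that had passed: 2 on the multi-place share, 3 on Slc34a1, 4 on Kl and that of Pth1r on Xpr1. No paired analysis was possible because the 9 libraries form 1 group. Cyp27b1, with 7 to 65 reads per library, is limited most by depth.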
